A study of Saccharomyces cerevisiae with 15 samples.

Results

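The genes of the proteasome, the protease that degrades ubiquitin-tagged proteins, were followed across 15 cultures of the budding yeast Saccharomyces cerevisiae. The 33 genes were listed by name: 32 subunit genes, of which 14 encode the core particle, 10 the base and 8 the lid of the regulatory particle, and RPN4, which encodes their transcriptional activator. All 33 had a probe set of their own on the Affymetrix YG-S98 arrays, which covered 5656 genes in all. Each group had 3 biological replicates with 1 array each, from cells growing logarithmically at 30 degrees Celsius in synthetic medium with dextrose. The groups were a strain deleted for PDR1 that expressed a fusion of Pdr1 to Cyc8 (Pdr1-Cyc8 in deletion), the PDR1 deletion with no construct named in its labels, cells that keep PDR1 and express Pdr1-Cyc8, cells that keep PDR1 and express Pdr1-Sin3, and cells that keep PDR1 and carry an empty vector. The fusions are described in the series as dominant-negative repressors. The promoter that drives each fusion, the part of Pdr1 it retains and the strain background are not given in the labels, and nothing says whether a group came from 1 transformant or several.

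The proteasome has a barrel-shaped core of alpha and beta rings, in which some beta subunits hold the proteolytic sites. A regulatory particle caps the core: its base carries a ring of ATPases that unfold substrates, and its lid removes ubiquitin before degradation. In yeast the subunit genes are activated together by Rpn4, a short-lived factor that the proteasome itself degrades. Transcription of RPN4 is in turn known to respond to Pdr1 and Pdr3, paralogous activators of drug resistance genes, and to the stress factors Yap1 and Hsf1. Cyc8 and Sin3 belong to corepressor complexes.

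Levels of the target genes followed the labels. PDR1 averaged 6.94 ± 0.24 in Pdr1-Cyc8 in deletion and 4.70 ± 0.40 in the PDR1 deletion, against 9.08 ± 0.16 in the empty vector (log2 level, SD, n = 3 each), and 9.07 in Pdr1-Cyc8 and 8.67 in Pdr1-Sin3. CYC8 averaged 11.58 in Pdr1-Cyc8 in deletion and 12.26 in Pdr1-Cyc8, against 8.69 in the empty vector. SIN3 averaged 11.45 in Pdr1-Sin3, against 8.21 in the empty vector. Hybridisation controls split the arrays into 2 sets: the BioC minus BioB difference was -0.64 to -0.20 in Pdr1-Cyc8 in deletion and Pdr1-Sin3, and 1.02 to 1.32 in the other 3 groups. Pdr1-Cyc8 in deletion can therefore be compared within a set only with Pdr1-Sin3, and set and group cannot be told apart in its comparisons with the other groups. Cultures of 1 group also differed in growth-related transcripts: the mean of 60 ribosome assembly genes, relative to the empty vector mean, was -0.11 to -0.03 in Pdr1-Cyc8 in deletion, -1.73 to -0.13 in the PDR1 deletion, -1.32 to -0.49 in Pdr1-Cyc8 and -0.76 to -0.64 in Pdr1-Sin3, with -0.32 to 0.22 on the empty vector arrays themselves. The mean of 33 environmental stress genes, on the same scale, was 0.45 to 0.63 in Pdr1-Cyc8 in deletion, 0.54 to 0.85 in the PDR1 deletion, 0.58 to 1.07 in Pdr1-Cyc8, 1.29 to 1.56 in Pdr1-Sin3 and -0.25 to 0.34 in the empty vector. The 3 lowest arrays, PDR1 deletion replicates 1 and 2 and Pdr1-Cyc8 replicate 1, were left out together in a further fit, and its values stand beside the results they move.

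The subunit genes were higher in 1 group. Relative to the mean of the empty vector arrays, the mean log2 level of the 32 subunit genes was 0.56 ± 0.14 in Pdr1-Cyc8 in deletion, 0.02 ± 0.04 in the PDR1 deletion, 0.09 ± 0.08 in Pdr1-Cyc8 and 0.10 ± 0.05 in Pdr1-Sin3, with an SD of 0.14 among the empty vector arrays themselves (n = 3 each). The 3 Pdr1-Cyc8-in-deletion arrays lay at 0.47 to 0.72 and stood above all 12 others, of which the highest was at 0.18. RNA of whole cultures was measured, so a change in every cell and a change in some of the cells cannot be told apart. Levels are log2(intensity + 16) after quantile normalisation, differences are first group minus second, and a gene is called where limma's adjusted p over 9275 probe sets is under 0.05.

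**Figure D1:**
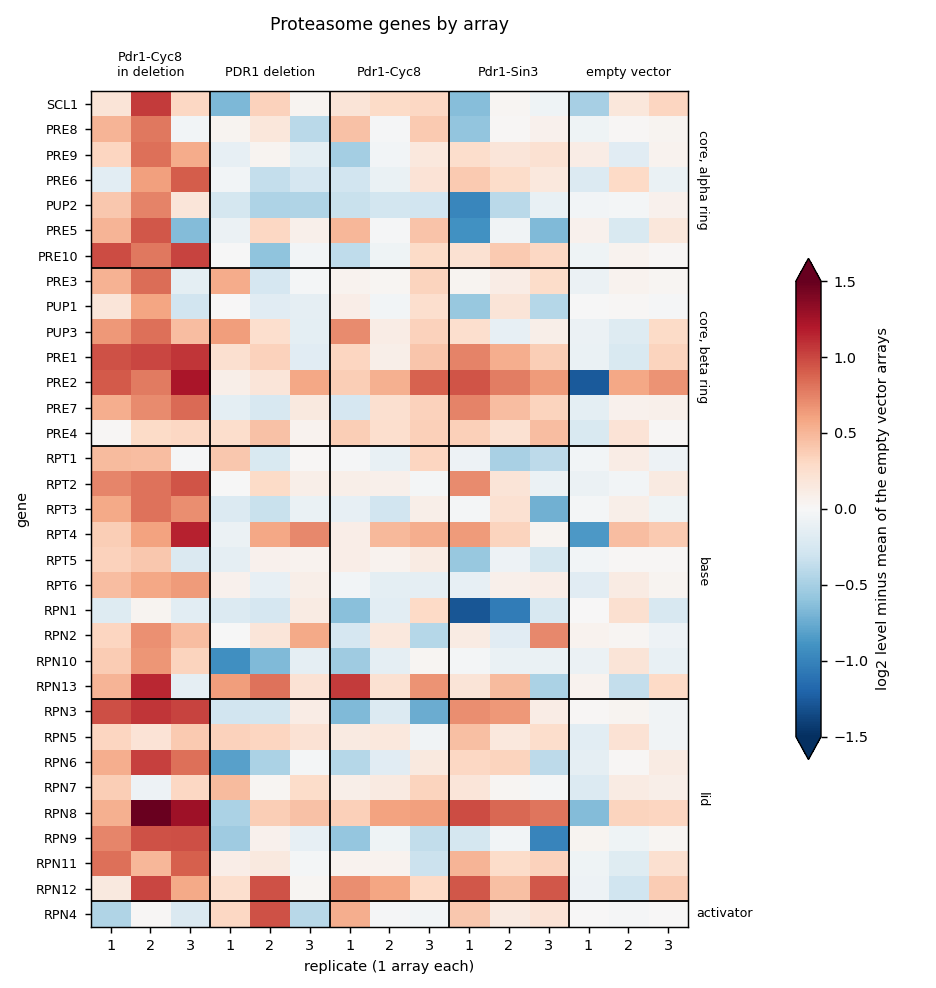
Log2 level of each of the 33 genes (down the page, by class) on each of the 15 arrays (across, by group and replicate), minus the gene's mean over the 3 empty vector arrays; red is higher and blue is lower, and the scale ends at 1.5 either way. The 3 leftmost columns, Pdr1-Cyc8 in deletion, are red for nearly every subunit gene, while RPN4 in the bottom line is not.

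Set against the empty vector, Pdr1-Cyc8 in deletion had a higher mean for 31 of the 32 subunit genes, RPN1 being the exception at -0.10; the count was 31 with the values as deposited and 30 with median centring. The median difference was 0.54, a 1.45-fold higher level, where the median over all 9275 probe sets was 0.01 and 51.3% of them were above 0. The increase was called for 7 subunit genes and no decrease was called, while 4.47% of all probe sets were called higher and 4% lower (415 and 371 probe sets, or 613 and 302 with the values as deposited, which set the median of all probe sets at 0.14 and that of the subunit genes at 0.55). Among the 2433 probe sets in the range of mean level of the 33 genes, RPN4 included, 5.38% were called higher. In 17 subunit genes all 3 arrays of Pdr1-Cyc8 in deletion lay above all 3 of the empty vector, and 16.7% of all probe sets did so. The hybridisation controls differ between these groups, and environmental stress genes also moved: 11 of 33 were called higher and 2 lower, with 28 above 0 and a median difference of 0.46. Ribosome assembly genes had a median of -0.10, or 0.04 with the values as deposited, and none was called. An unadjusted p under 0.05 was found for 3 of 60, beside 2180 of all 9275 probe sets. The part of the array set and of the stress genes in the result was not tested. Each of 5 arrays moved the count of called genes by more than 1.5 times when left out: it was 2 without empty vector replicate 1 or without Pdr1-Cyc8 in deletion replicate 3, 3 without empty vector replicate 2, and 4 without Pdr1-Cyc8 in deletion replicate 1 or 2.

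In the core particle, all 14 genes were above 0 and 2 were called, beside 4.47% of all probe sets called higher. PRE10, an alpha ring subunit, read 10.84, 10.65 and 10.88 in Pdr1-Cyc8 in deletion, against 9.80, 9.91 and 9.88 in the empty vector, with a difference of 0.92 ± 0.22 (SE, adjusted p = 0.0155). PRE1, a structural subunit of the beta ring, read 10.86, 10.92 and 10.98 in Pdr1-Cyc8 in deletion, against 9.81, 9.68 and 10.25 in the empty vector, with a difference of 1.01 ± 0.21 (adjusted p = 0.00883), or 2.01-fold. In both genes the 2 groups were well apart, and the 3 arrays of Pdr1-Cyc8 in deletion lay close together. The genes of the proteolytic subunits did not pass the test. PRE2, which encodes the chymotrypsin-like subunit, read 11.07, 10.93 and 11.38 in Pdr1-Cyc8 in deletion, against 8.90, 10.73 and 10.83 in the empty vector (difference 0.98, 95% interval 0.16 to 1.79, adjusted p = 0.128). The first array of the empty vector lay far below the other 2. The trypsin-like subunit gene PUP1 had the smallest difference of the core, 0.16 (adjusted p = 0.752), and that of the caspase-like subunit gene PRE3 was 0.40 (adjusted p = 0.374). The other 9 core genes, SCL1, PRE8, PRE9, PRE6, PUP2, PRE5, PUP3, PRE7 and PRE4, had differences of 0.20 to 0.70, and none was called.

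In the base, 9 of 10 genes were above 0 and 1 was called, beside 4.47% of all probe sets called higher. The called gene was RPT2, which encodes an ATPase. It read 9.11, 9.20 and 9.32 in Pdr1-Cyc8 in deletion, against 8.29, 8.34 and 8.51 in the empty vector, with a difference of 0.83 ± 0.21 (adjusted p = 0.0223). The genes of the other 5 ATPases, RPT1, RPT3, RPT4, RPT5 and RPT6, had differences of 0.31, 0.69, 0.71, 0.18 and 0.56, all above 0 and none called. RPT3 and RPT6 did not overlap between the groups, with adjusted p-values of 0.0706 and 0.0585. The scaffold gene RPN1 was the one subunit gene below 0, with 9.40, 9.63 and 9.44 in Pdr1-Cyc8 in deletion and 9.59, 9.82 and 9.35 in the empty vector, and these overlapped (difference -0.10, adjusted p = 0.878). The second scaffold gene, RPN2, and the ubiquitin receptor genes RPN10 and RPN13 had differences of 0.50, 0.46 and 0.50 that were not called. RPN10 sits where base and lid meet and is counted here with the base.

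In the lid, all 8 genes were above 0 and 4 were called, beside 4.47% of all probe sets called higher. RPN3, a scaffold subunit, read 9.87, 9.97 and 9.91 in Pdr1-Cyc8 in deletion, against 8.91, 8.94 and 8.85 in the empty vector (difference 1.02 ± 0.22, adjusted p = 0.00894). RPN9, another scaffold subunit, read 10.34, 10.57 and 10.58, against 9.66, 9.54 and 9.64 in the empty vector (difference 0.88 ± 0.25, adjusted p = 0.0393). Both genes separated the groups by far more than the spread within either. RPN11, which encodes the deubiquitinase of the lid, read 10.77, 10.45 and 10.85 in Pdr1-Cyc8 in deletion, against 9.88, 9.77 and 10.19 in the empty vector (difference 0.74 ± 0.20, adjusted p = 0.0301). RPN8, its partner subunit, read 9.05, 9.99 and 9.78 in Pdr1-Cyc8 in deletion, against 7.85, 8.84 and 8.83 in the empty vector (difference 1.10 ± 0.31, adjusted p = 0.0418). RPN8 had the largest difference of the 32 genes but also a wide spread, with its first array low in either group. RPN5, RPN6, RPN7 and RPN12 had differences of 0.31, 0.80, 0.20 and 0.57 that were not called. The calls of PRE1 and RPN3 were kept in all 16 alternatives tried. That of RPN9 was lost in each of the 6 fits that left out an array of either group, with adjusted p-values of up to 0.115 over all its alternatives. Those of RPT2, RPN8 and RPN11 were each kept in 2 of these 6 fits, and that of PRE10 in 3.

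**Figure D2:**
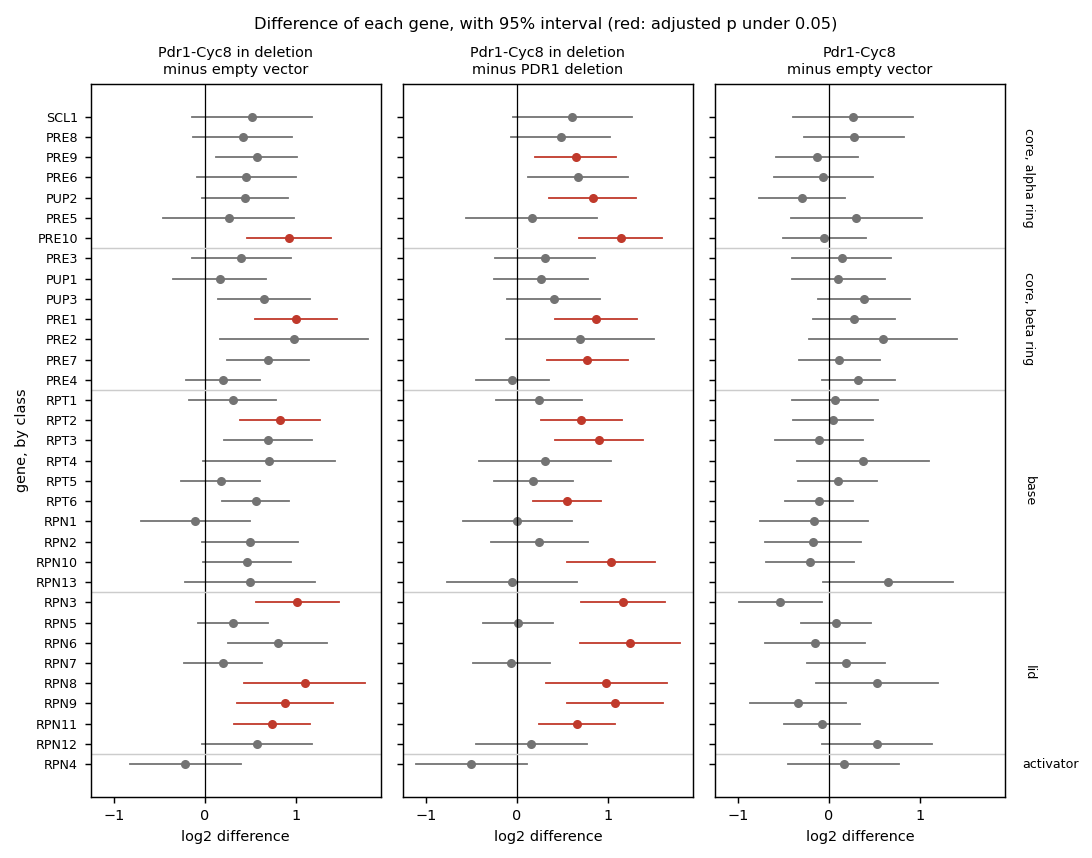
Log2 difference of each gene (down the page, by class) with its 95% interval (horizontal line) in 3 comparisons: Pdr1-Cyc8 in deletion minus empty vector, Pdr1-Cyc8 in deletion minus PDR1 deletion, and Pdr1-Cyc8 minus empty vector; red marks an adjusted p under 0.05. The first 2 panels share the Pdr1-Cyc8-in-deletion arrays and have 7 and 14 subunit genes in red, and the third has none.

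Core, base and lid were shifted by amounts that overlapped between the classes. Against the mean of the empty vector arrays, Pdr1-Cyc8 in deletion stood at 0.55 ± 0.19 for the core, 0.46 ± 0.14 for the base and 0.70 ± 0.13 for the lid (SD, n = 3). Within each of its arrays the lid exceeded the base, by 0.16, 0.15 and 0.41, and the core, by 0.09, 0.00 and 0.37. The base lay under the core by 0.07, 0.15 and 0.04. An order of lid, core and base thus held in all 3 arrays, with a step between lid and core that was close to 0 in replicate 2. The lid also exceeded the base in the 3 Pdr1-Sin3 arrays, by 0.52, 0.40 and 0.27, and by 0.40 ± 0.12 on average. In the PDR1 deletion, Pdr1-Cyc8 and empty vector groups the lid minus base difference was -0.16 to 0.12 and took both signs. The order of lid and base was thus shared by the 2 groups of 1 set of hybridisation controls, whose 6 arrays lay at 0.15 to 0.52, against -0.16 to 0.12 on the 9 arrays of the other set. For this contrast, array set and group cannot be told apart, and no test of it was made. The 2 rings of the core, alpha at 0.51 ± 0.27 and beta at 0.59 ± 0.12, differed by less than their spread in Pdr1-Cyc8 in deletion. In Pdr1-Sin3, the beta ring stood at 0.31 ± 0.06 and the alpha ring at -0.09 ± 0.20, and all 7 beta ring genes but 1 were above 0 there, none of them called.

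**Figure D3:**
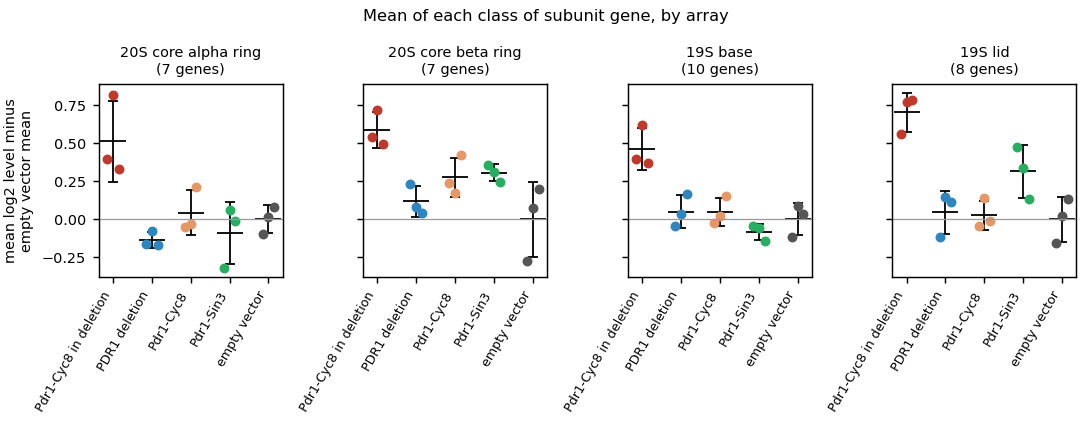
Mean log2 level of the genes of each class on each array, minus the empty vector mean (vertical axis), for the alpha ring, beta ring, base and lid; each point is 1 array, the bar is the mean of 3 arrays and the whiskers are 1 SD. The 3 Pdr1-Cyc8-in-deletion arrays lie highest in each panel, and Pdr1-Sin3 lies above 0 for the beta ring and lid but not for the base.

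RPN4 itself did not rise in the group in which the subunit genes did. Its log2 level was 7.54, 8.004 and 7.77 in Pdr1-Cyc8 in deletion, 8.30, 8.95 and 7.57 in the PDR1 deletion, 8.53, 7.97 and 7.94 in Pdr1-Cyc8, and 8.39, 8.12 and 8.19 in Pdr1-Sin3, against 7.99, 7.97 and 7.998 in the empty vector. Pdr1-Cyc8 in deletion was the lowest group on average and the only one whose mean was under the empty vector, and its arrays overlapped those of every group but Pdr1-Sin3. The order of the group means was 8.27 in the PDR1 deletion, 8.23 in Pdr1-Sin3, 8.15 in Pdr1-Cyc8, 7.99 in the empty vector and 7.77 in Pdr1-Cyc8 in deletion, and no neighbours in that order differed beyond the spread of the wider of the 2 groups. The difference between Pdr1-Cyc8 in deletion and the empty vector was -0.22 (95% interval -0.82 to 0.39, adjusted p = 0.716). The median difference of the subunit genes in the same comparison was 0.54. Only RNA was measured, and the part of RPN4 in the levels of the subunit genes was not tested. RPN4 was called in none of the 7 comparisons. Its difference was -0.50 between Pdr1-Cyc8 in deletion and the PDR1 deletion (adjusted p = 0.242) and -0.46 between Pdr1-Cyc8 in deletion and Pdr1-Sin3 (adjusted p = 0.442). It was 0.28 for the PDR1 deletion against the empty vector (adjusted p = 0.715), 0.16 for Pdr1-Cyc8 (adjusted p = 0.901) and 0.25 for Pdr1-Sin3 (adjusted p = 0.676).

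RPN4 was also among the less tightly measured of the 33 genes. The PDR1 deletion alone spanned 7.57 to 8.95 (SD 0.69), while the 3 empty vector arrays lay at 7.97 to 7.998. Without PDR1 deletion replicate 3 the difference between Pdr1-Cyc8 in deletion and the PDR1 deletion was -0.85 and called (adjusted p = 0.0254). Without the 3 arrays that were low in ribosome assembly it was 0.20 (adjusted p = 0.718). The direction against the PDR1 deletion thus rested on which of its arrays were kept.

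**Figure D4:**
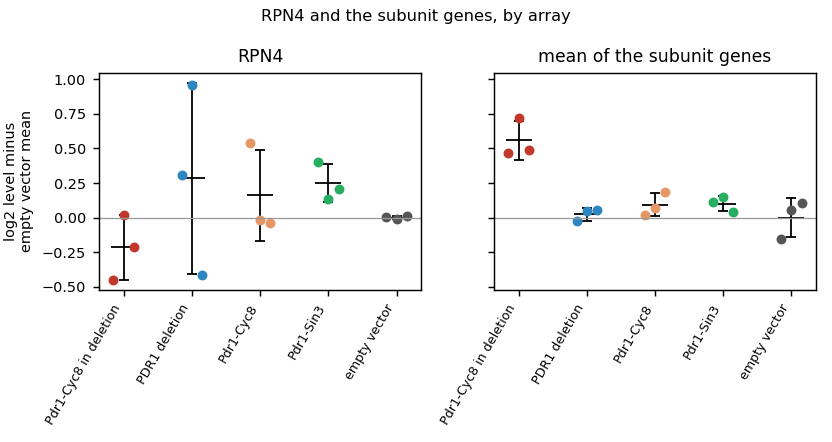
RPN4 (left) and the mean of the 32 subunit genes (right) on each array, as log2 level minus the empty vector mean; each point is 1 array, the bar is the mean of 3 arrays and the whiskers are 1 SD. Pdr1-Cyc8 in deletion is the highest group for the subunit genes, at 0.47 to 0.72, and at -0.45 to 0.02 for RPN4.

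The comparison with the PDR1 deletion sets the fusion against no named construct in strains that both lack PDR1. Pdr1-Cyc8 in deletion had 14 subunit genes called higher and none lower. Over all probe sets 10.3% were called higher and 8.7% lower, and 15.1% were called higher in the range of level of the 33 genes. The calls were spread over the classes: 3 in the alpha ring, 2 in the beta ring, 4 in the base and 5 in the lid. The median difference of the subunit genes was 0.58, a 1.49-fold higher level, against 0.01 over all probe sets, and 15 subunit genes did not overlap between the groups, as did 17.4% of all probe sets. The mean level was higher in 29 genes (29 with the values as deposited and 27 with median centring), and PRE4, RPN13 and RPN7 were the 3 below 0, at -0.05, -0.05 and -0.06.

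By smallest adjusted p, the 8 leading genes here were RPN3, PRE10, RPN6, RPN10, RPN9, PRE1, RPT3 and PUP2. RPN3 read 8.61, 8.63 and 9.01 in the PDR1 deletion, and Pdr1-Cyc8 in deletion, with the values given above, exceeded it by 1.17 ± 0.22 (adjusted p = 0.00238). RPN6, a scaffold subunit of the lid that contacts the core, read 10.29, 10.77 and 10.56 in Pdr1-Cyc8 in deletion, against 8.92, 9.26 and 9.70 in the PDR1 deletion (difference 1.24 ± 0.26, adjusted p = 0.00488). RPN10, the ubiquitin receptor, read 11.00, 11.29 and 10.96 in Pdr1-Cyc8 in deletion, against 9.70, 9.96 and 10.49 in the PDR1 deletion (difference 1.03 ± 0.23, adjusted p = 0.00668). In RPN6 and RPN10 the deletion arrays were widely spread but stayed under all 3 arrays with the fusion. PUP2, an alpha ring subunit, read 9.88, 10.22 and 9.66 in Pdr1-Cyc8 in deletion, against 9.22, 9.02 and 9.02 in the PDR1 deletion (difference 0.84 ± 0.22, adjusted p = 0.0187). RPT3, an ATPase gene, read 8.81, 9.05 and 8.95 in Pdr1-Cyc8 in deletion, against 8.04, 7.91 and 8.14 in the PDR1 deletion (difference 0.90 ± 0.23, adjusted p = 0.0137). In neither gene did the groups overlap, and PUP2 varied more among the arrays with the fusion (9.66 to 10.22) than RPT3 did.

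For PRE10 the difference from the deletion was 1.14 ± 0.22 (adjusted p = 0.00276), for RPN9 1.08 ± 0.25 (adjusted p = 0.00887) and for PRE1 0.87 ± 0.21 (adjusted p = 0.0114). RPT2, RPN8 and RPN11 also rose, by 0.71, 0.98 and 0.67. Their calls were kept in 2, 2 and 1 of the 6 fits that left out an array of either group. The remaining 3 called genes, PRE9, PRE7 and RPT6, lay outside the rule for naming genes and were picked out after their values were seen. They rose by 0.65, 0.78 and 0.55, with calls kept in 1, 2 and 1 of the same 6 fits. Ribosome assembly genes differed between the same groups, with 25 of 60 called higher in Pdr1-Cyc8 in deletion. Without the 3 arrays low in those genes, where the spread of the single PDR1 deletion array that remains is taken from the other groups, the median difference of the subunit genes was 0.55 and 1 of them, PRE1, was called (1.18, adjusted p = 0.0486). The same fit left 9 subunit genes called against the empty vector. With single arrays left out the count against the deletion was 7 to 12, with 8 without PDR1 deletion replicate 1, 7 without its replicate 2, and 8 without replicate 2 or replicate 3 of Pdr1-Cyc8 in deletion.

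The comparison with Pdr1-Sin3 lay within 1 set of arrays by the hybridisation controls, but ribosome assembly and environmental stress genes also differed between these groups. Of the 60 ribosome assembly genes, 57 were above 0 in Pdr1-Cyc8 in deletion minus Pdr1-Sin3, with a median difference of 0.63 and none called (19 at an unadjusted p under 0.05; 3 called higher with the values as deposited). All 33 environmental stress genes were below 0 (1 was above with the values as deposited), with a median of -0.79, and 8 were called lower. Their part in the differences of the subunit genes was not tested. Of the 32 subunit genes, 30 had a higher mean in Pdr1-Cyc8 in deletion (30 also with the values as deposited and with median centring), with a median difference of 0.47 against 0.03 over all probe sets. PUP2 and RPN9 were called higher and none was called lower. Over all probe sets 0.83% were called higher and 1.7% lower (77 and 158, or 107 and 131 with the values as deposited). An unadjusted p under 0.05 was found for 17 of the 32 subunit genes, beside 1630 of all 9275 probe sets. RPN9 read 10.34, 10.57 and 10.58 in Pdr1-Cyc8 in deletion, against 9.35, 9.57 and 8.62 in Pdr1-Sin3 (difference 1.31 ± 0.25, adjusted p = 0.0119). PUP2 read 9.88, 10.22 and 9.66 in Pdr1-Cyc8 in deletion, against 8.50, 9.08 and 9.37 in Pdr1-Sin3 (difference 0.94 ± 0.22, adjusted p = 0.0381). Neither gene overlapped between the groups, and in all 15 subunit genes did not, with Pdr1-Cyc8 in deletion on the higher side each time, as in 13.1% of all probe sets. The call of RPN9 was lost without Pdr1-Sin3 replicate 3 (adjusted p = 0.0621). That of PUP2 was lost without any of 4 arrays, Pdr1-Cyc8 in deletion replicates 1 and 2 and Pdr1-Sin3 replicates 1 and 2. By class, the largest differences were those of PUP2 in the core, RPT3 in the base (0.87, adjusted p = 0.0551) and RPN9 in the lid, and the smallest were those of PRE4 (-0.14), RPN2 (0.27) and RPN12 (-0.20).

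In 11 subunit genes the 3 arrays of Pdr1-Cyc8 in deletion lay above all 12 arrays of the other groups: PRE9, PUP2, PRE10 and PRE1 of the core, RPT2, RPT3, RPT6 and RPN10 of the base, and RPN3, RPN6 and RPN9 of the lid. No subunit gene lay below all 12. Of all 9275 probe sets, 4.32% lay above and 3.71% below. This count was added after the values were seen.

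In the other 3 groups the median difference of the subunit genes from the empty vector was 0.04 to 0.11. Few probe sets were called in these comparisons (0.0323% to 3.71%), so an absence of called subunit genes says little about them. In Pdr1-Cyc8 none of the 32 was called by limma, where 0.712% of all probe sets were called in either direction. The median difference was 0.09. An unadjusted p under 0.05 was found for 1 of the 32, beside 909 of all 9275 probe sets. PRE2, RPN13 and RPN12 had the highest differences of core, base and lid, at 0.59, 0.65 and 0.53, and PUP2, RPN10 and RPN3 the lowest, at -0.30, -0.21 and -0.53. RPN3 read 8.24, 8.70 and 8.16 in Pdr1-Cyc8 and so lay under all 3 empty vector arrays, with an adjusted p of 0.413. It was thus on opposite sides of the empty vector in the 2 groups with the Pdr1-Cyc8 fusion.

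In the PDR1 deletion none was called, where 0.0323% of all probe sets were, and the median difference was 0.04. An unadjusted p under 0.05 was found for 1 of the 32, beside 1274 of all 9275 probe sets. RPN10 read 9.70, 9.96 and 10.49 in the PDR1 deletion, against 10.54, 10.81 and 10.51 in the empty vector, and had the lowest difference, -0.57 (adjusted p = 0.3). RPN13, at 0.55, had the highest. Without PDR1 deletion replicate 3 the difference of RPN10 was -0.79 and was called (adjusted p = 0.041).

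In Pdr1-Sin3 none was called, where 3.71% of all probe sets were, and the median difference was 0.11. At an unadjusted p under 0.05 there were 7 of the 32, beside 1780 of all 9275 probe sets. Relative to the empty vector mean, beta ring and lid stood at 0.31 ± 0.06 and 0.31 ± 0.17 (SD, n = 3). Alpha ring and base stood at -0.09 ± 0.20 and -0.08 ± 0.05. The differences were more widely spread than in the other 2 groups: RPN8, PRE2 and RPT4 were highest in lid, core and base, at 0.88, 0.78 and 0.34, and RPN1, PRE5 and RPN9 were lowest in base, core and lid, at -0.86, -0.54 and -0.43. RPN1 read 8.31, 8.54 and 9.35 in Pdr1-Sin3, against 9.59, 9.82 and 9.35 in the empty vector. Without Pdr1-Sin3 replicate 3 it was called lower (-1.17, adjusted p = 0.0433).

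The effect of the Pdr1-Cyc8 fusion was compared between cells without and with PDR1 by an interaction term, the difference from the PDR1 deletion minus the difference from the empty vector. It was positive for 25 of 32 subunit genes (23 with the values as deposited and 23 with median centring), with a median of 0.38 against 0.02 over all probe sets. The term was called higher for 6 subunit genes, PUP2, PRE10, RPN10, RPN3, RPN6 and RPN9. Over all probe sets 6.2% were called higher and 5.3% lower, and 10.6% were called higher in the range of level of the 33 genes. RPN3 had the largest term, 1.70 ± 0.30 (adjusted p = 0.00521), and it was called in each of the 12 fits that left out 1 array. PRE4, RPN13 and RPN12 had the lowest terms of core, base and lid, at -0.37, -0.70 and -0.37, none of them called. RPN4 had a term of -0.66 (adjusted p = 0.304). The ribosome assembly genes moved with this term too, with 33 of 60 called higher, 6 of 33 environmental stress genes were called lower, and none of the 32 subunit genes was called without the 3 arrays low in those genes. The count was 1 to 7 when single arrays were left out: it was 1 without empty vector replicate 1 or Pdr1-Cyc8 replicate 1, 2 without PDR1 deletion replicate 2, and 3 without PDR1 deletion replicate 1 or without replicate 2 of Pdr1-Cyc8 in deletion.

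The residual SD of a member had a median of 0.27, and was smallest for RPT6, at 0.11, and largest for PRE2, at 0.53. The median over all probe sets was 0.35, but these include dimmer ones and were not matched to the members for level. The first empty vector array was the lowest of its group for the mean of the subunit genes, at -0.16 against 0.05 and 0.11 on the other 2. It read the lowest of the 3 in 17 of 32 subunit genes, and lay more than 0.5 under both others in 4, PRE2, RPT4, RPN8 and SCL1. RPT4 was at 7.72 there, against 9.04 and 8.98. A single probe set stood for 31 of the genes. RPT5 had 4, and its other probe sets did not move with the brightest, which gave 0.18 between Pdr1-Cyc8 in deletion and the empty vector: 2 of them gave -0.62 and -0.33 and the third 0.34. None of these 4 was called, so the direction for RPT5 depends on the probe set. PRE3 had 3 probe sets, at 0.40 for the brightest and 0.26 and 0.28 for the other 2 in the same comparison. The 3 differed in sign in the interaction, where they gave 0.17, 0.30 and -0.23.

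Genes that serve the proteasome without being listed as subunits were followed in 2 lists. Of 14 assembly factors and alternative caps, none was called in Pdr1-Cyc8 in deletion against the empty vector. Over all probe sets 4.47% were called higher there and 4% lower. At an unadjusted p under 0.05 there were 7 of the 14, beside 2180 of all 9275 probe sets. Against the PDR1 deletion 1 of the 14 (7.14%) was called higher, beside 10.3% of all probe sets. UMP1, the chaperone of core assembly, averaged 8.35 ± 0.26 in Pdr1-Cyc8 in deletion and 7.62 ± 0.27 in the PDR1 deletion (SD, n = 3 each, difference 0.72, adjusted p = 0.0337). Of 19 genes that handle ubiquitin at the proteasome, 2 (10.5%) were called higher in Pdr1-Cyc8 in deletion against the empty vector. The share over all probe sets was 4.47%. They were SEM1, whose product is known as a small further subunit of the lid, with 9.41 ± 0.39 against 8.39 ± 0.18 (difference 1.03, adjusted p = 0.025), and SHP1, a cofactor of the Cdc48 unfoldase, with 11.32 ± 0.06 against 10.37 ± 0.15 (difference 0.95, adjusted p = 0.00634). SEM1 is not among the 32 subunit genes counted above. Against the PDR1 deletion 4 of the 19 (21.1%) were called higher, beside 10.3% of all probe sets. DSK2 rose by 1.25, SHP1 by 0.78, RAD23 by 0.88 and SEM1 by 0.90, and UFD4, a ubiquitin ligase, fell by 0.78. DSK2 and RAD23 encode shuttles that bring ubiquitinated proteins to the proteasome. RAD23 was the 1 gene of the list called against Pdr1-Sin3 (1.15, adjusted p = 0.024). In the interaction RAD23 was called higher (1.23) and the ligase gene HUL5 lower (-1.32). UBI4, the stress-induced polyubiquitin gene, rose in Pdr1-Sin3 against the empty vector (1.18, adjusted p = 0.0201).

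Among 9 genes of Rpn4 turnover and of its known regulators, PDR1 was called in 5 of the 7 comparisons and PDR3 in 1. PDR3 averaged 6.92 ± 0.12 in Pdr1-Cyc8 in deletion and 7.81 ± 0.21 in the PDR1 deletion (difference -0.89, adjusted p = 0.00459), with 7.44 ± 0.02 in the empty vector. YAP1 and HSF1 were called in no comparison. Their levels were 6.84 ± 0.24 and 8.29 ± 0.21 in Pdr1-Cyc8 in deletion, against 6.59 ± 0.15 and 8.69 ± 0.31 in the empty vector.

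Stress genes were called in several groups. Of 33 environmental stress genes, which yeast is known to induce under many kinds of stress, 22 rose and none fell in Pdr1-Sin3 against the empty vector, a comparison in which no subunit gene was called. In Pdr1-Cyc8 in deletion against the empty vector 11 were called higher and 2 lower, beside 4.47% and 4% of all probe sets. HXK1, a hexokinase gene, rose by 2.31, GLC3, of glycogen synthesis, by 2.07, and YGP1, a cell wall glycoprotein gene, fell by 3.47. In Pdr1-Cyc8 against the empty vector 6 were called higher, beside 0.464% of all probe sets. In the PDR1 deletion none was called, where 0.0323% of all probe sets were. An unadjusted p under 0.05 was found for 18 of the 33 in the PDR1 deletion, beside 1274 of all 9275 probe sets. Against the PDR1 deletion, Pdr1-Cyc8 in deletion had 1 of the 33 called higher and 3 lower, beside 10.3% and 8.7% of all probe sets. HSP104, SSA4, HSP42 and HSP26 stand in the chaperone list too, CTT1 in the oxidative stress list and UBI4 in the ubiquitin list. Many of the 20 oxidative stress genes are known targets of Yap1. In Pdr1-Cyc8 in deletion against the empty vector 5 of the 20 were called higher and none lower, beside 4.47% and 4% of all probe sets. SRX1, a sulfiredoxin, rose by 2.40, GPX2, a peroxidase, by 1.27, and GSH1, of glutathione synthesis, by 1.10. TRR1, a thioredoxin reductase, rose by 0.91, and SOD2, a superoxide dismutase, by 0.90. Against the PDR1 deletion 4 of the 20 (20%) were called higher, SOD2, GPX2, TRR1 and SRX1, beside 10.3% of all probe sets. SRX1 also rose in Pdr1-Cyc8 against the empty vector, by 2.28, and SOD2 and PRX1 rose in Pdr1-Sin3. In Pdr1-Cyc8 in deletion against the empty vector, 2 of 17 cytosolic chaperone genes (11.8%) were called higher, beside 4.47% of all probe sets. HSP104 and SIS1 rose by 1.13 and 1.04, HSP104 with overlap between the groups. Against the PDR1 deletion YDJ1, SIS1 and FES1 (17.6% of the list) were called higher, beside 10.3% of all probe sets. HSP82, SSA4 and HSP104 rose in Pdr1-Sin3, by 1.71, 1.55 and 1.48. HSP82 and SSA4 were lower in Pdr1-Cyc8 in deletion than in Pdr1-Sin3, with differences of -2.06 and -1.72. In that comparison GPX2 was higher (1.21) and OYE2, an oxidoreductase gene, lower (-1.13), and in the interaction the transporter gene ATR1 was lower (-2.57). None of the 9 regulators, the chaperones, the oxidative or the environmental stress genes other than PDR1 was called in the PDR1 deletion against the empty vector. The part of the stress and chaperone genes in the levels of the subunit genes was not tested.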

How the data were processed

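Affymetrix YG-S98 arrays of 15 cultures, in 5 groups of 3 taken from the sample titles, were used. The deposited table holds linear intensity values, 1 per probe set and array; the sources used here do not name the authors' software, background correction or scaling. With 2% trimmed from each end, the mean was 500.5 to 500.7 on each array, so the values had been scaled. Of 9335 probe sets, 60 controls were left out. The other 9275 were named from the platform annotation (6504 with 1 gene, 328 with several, 2443 with none). A gene was read from its brightest probe set.

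Intensities were quantile normalised, converted to log2(value + 16) and fitted with limma 3.58.1 in R 4.3.3, in 1 fit to 15 arrays leaving 10 residual degrees of freedom. In each of 7 comparisons p-values were adjusted over 9275 probe sets (Benjamini-Hochberg). Comparisons that share a group share its arrays and are not independent. Precision is limited by the number of arrays. The procedure was tested on simulated data. Plots were made in Python 3.11.15 with matplotlib 3.10.9.

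The genes, gene lists and comparisons were chosen with earlier results of these data known. Named genes were RPN4 and the target genes, the members called (at most 8 per comparison, by adjusted p), the highest and lowest member of core, base and lid, members whose probe sets differ in sign, and at most 4 called genes per pathway list. The fit was repeated on the values as deposited, with median centring, with a pseudocount of 1 or 64, without the dimmest 25% of probe sets, with an intensity trend and robust prior, on only the groups compared, on only the first set of arrays by hybridisation controls, with the replicate number as a block, with the mean over a gene's probe sets, and with each array left out. Leaving out 3 arrays together was added after the data were seen.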

Additional observations from a re-analysis of the deposited data

Results flagged for a closer look

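The effect of the Pdr1-Cyc8 fusion differed between cells without and with PDR1, by the test of an interaction term in limma, for 6 subunit genes. The term was 1.13 for PUP2 (adjusted p = 0.0336) and 1.19 for PRE10 (adjusted p = 0.0239), both of the alpha ring of the core. It was 1.24 for RPN10 of the base (adjusted p = 0.025). In the lid it was 1.70 for RPN3 (adjusted p = 0.00521), 1.39 for RPN6 (adjusted p = 0.0265) and 1.42 for RPN9 (adjusted p = 0.0211). All 6 were positive, a larger log2 difference in cells without PDR1. With PDR1 deletion replicates 1 and 2 and Pdr1-Cyc8 replicate 1, the arrays low in ribosome assembly genes, left out, the 6 terms were 1.18, 0.85, 0.64, 1.38, 0.85 and 1.22 in the same gene order, with adjusted p-values of 0.131 to 0.379. The 2 effects also come from comparisons that differ in their sets of hybridisation controls, and set and group cannot be told apart.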

How the results depend on the processing

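No subunit gene was called in Pdr1-Cyc8 against the empty vector under any of 17 alternatives, and the median difference of the subunit genes stayed above 0 in all alternatives of the 4 comparisons that involve Pdr1-Cyc8 in deletion. Against the empty vector, 7 genes were called; it was 4 with median centring, 11 with a pseudocount of 64 and 2 to 6 with an array left out, and the median was 0.38 with median centring and 0.39 to 0.66 with an array left out. Against the PDR1 deletion, 14 were called; it was 9 with median centring, 6 in a fit of only the groups compared, 1 without the 3 arrays that were low in ribosome assembly genes and 7 to 12 with an array left out, and the median was 0.41 with median centring and 0.44 to 0.61 with an array left out. Against Pdr1-Sin3, 2 were called; it was 1 with a pseudocount of 1, in a fit of only the groups compared and with the replicate block, 4 with a pseudocount of 64, and 1 to 3 with an array left out. In the interaction, 6 were called; it was 0 without the 3 arrays and 1 to 7 with an array left out, with a median of 0.23 to 0.62. In Pdr1-Sin3 and in the PDR1 deletion, each against the empty vector, the count was 0 to 1 with an array left out. RPN4 turned to -0.030 in Pdr1-Cyc8 and -0.42 in the PDR1 deletion, each against the empty vector, without the 3 arrays, and spanned -0.030 to 0.26 and -0.054 to 0.64 with an array left out. Against the PDR1 deletion it was 0.20 without the 3 arrays and -0.85 to -0.16 with an array left out; its interaction was 0.23 without the 3 arrays and -1.01 to -0.32, called without PDR1 deletion replicate 3 (adjusted p = 0.0495). The cause was not tested.

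With the values as deposited the median of all probe sets between Pdr1-Cyc8 in deletion and the empty vector was 0.14, with 613 called higher and 302 lower, against 415 and 371 after quantile normalisation and 342 and 429 with median centring. The subunit median was 0.55 and 31 of 32 were above 0 with the values as deposited, and 30 with median centring. Deviations from the group means had a correlation over 0.1 in 3 of 30 same-number pairs of arrays and 11 of 60 other pairs. The labels do not say whether a replicate number marks a shared day or batch. These correlations cannot settle that. With the replicate block 7, 12 and 6 subunit genes were called against the empty vector, against the PDR1 deletion and in the interaction.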
